A study of Rattus norvegicus with 42 samples.

Results

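Rat metanephric mesenchyme cultured with NGAL for 1 or 2 days was compared with mesenchyme cultured with the ANX fraction for the same times. The comparison used the 4 NGAL arrays and the 4 ANX arrays of days 1 and 2, which are 8 of the 42 arrays of the series, and the difference was taken within each day and then averaged over both days. All cultures started from mesenchyme of rat embryos at day 13.5 of gestation that had been freed of the ureteric bud with trypsin, DNase and pins. The explants grew on collagen-coated transwell filters in a DMEM/F12 medium that held dexamethasone, T3, insulin, prostaglandin, selenium and transferrin, besides a recombinant FGF and a recombinant TGF. To this medium NGAL or the ANX fraction was added, and the uninduced control cultures of days 1 and 2, used as reference values, had neither. The series also holds cultures with LIF and freshly dissected mesenchyme that was not cultured. The LIF cultures of days 1 and 2 served as further reference values, and all 42 arrays were fitted together. Each treatment and day was measured on 2 arrays that the labels call biological replicates. The sources used here do not give what the ANX fraction contains or how many explants went into 1 array. The tissue is an explant of mixed cells, so fewer cells of a type and less RNA per cell cannot be told apart in any value below.

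NGAL, neutrophil gelatinase-associated lipocalin, is the secreted protein encoded by Lcn2, and it binds iron held in siderophores. Both NGAL and ANX were used in the study as inducers, that is, additions under which metanephric mesenchyme, the embryonic tissue that forms the nephron, converts into epithelium. In many tissues cytokines and growth factors act within hours on NF-kappaB, C/EBP, STAT and AP-1 transcription factors, whose known targets include chemokines, cyclooxygenase 2 and feedback inhibitors. The kidney mesenchyme also holds stromal cells, which lie around the nephron progenitors and are known for Foxd1, Tcf21, retinoic acid synthesis and matrix genes.

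Promoters are shown for 4 of the genes lower under NGAL, 3 of them with known roles in inflammation and Lcn2 itself, because the letters bound by NF-kappaB, C/EBP and STAT factors could be looked up in them. Each line gives the 250 bases before the transcription start, 5' to 3' on the gene's strand, from RefSeq annotation of the GRCr8 build. Capitals mark matches on either strand to GGGNNTTNCC (NF-kappaB), TTGCNNAA (C/EBP) or TTCNNNGAA (STAT), and TGANTCA (AP-1) was searched too. Cxcl1 lies at chr14:17479322-17479571 on the minus strand, Ptgs2 at chr13:64713813-64714062 on the plus strand, Icam1 at chr8:27829595-27829844 on the plus strand and Lcn2 at chr3:36081781-36082030 on the minus strand.
Cxcl1: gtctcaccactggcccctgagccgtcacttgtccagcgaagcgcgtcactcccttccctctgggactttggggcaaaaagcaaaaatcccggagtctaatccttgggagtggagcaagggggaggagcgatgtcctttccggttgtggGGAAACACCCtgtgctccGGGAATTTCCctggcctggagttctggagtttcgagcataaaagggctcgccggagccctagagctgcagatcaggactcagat
Ptgs2: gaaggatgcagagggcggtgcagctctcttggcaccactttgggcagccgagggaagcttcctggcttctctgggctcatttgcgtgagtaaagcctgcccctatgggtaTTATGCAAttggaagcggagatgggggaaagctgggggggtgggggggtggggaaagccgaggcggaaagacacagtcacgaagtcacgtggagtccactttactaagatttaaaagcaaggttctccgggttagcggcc
Icam1: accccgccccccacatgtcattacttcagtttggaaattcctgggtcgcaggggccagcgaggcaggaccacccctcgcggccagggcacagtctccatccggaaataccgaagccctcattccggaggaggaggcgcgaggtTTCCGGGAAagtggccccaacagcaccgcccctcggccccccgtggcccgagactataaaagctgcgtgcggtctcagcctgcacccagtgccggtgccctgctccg
Lcn2: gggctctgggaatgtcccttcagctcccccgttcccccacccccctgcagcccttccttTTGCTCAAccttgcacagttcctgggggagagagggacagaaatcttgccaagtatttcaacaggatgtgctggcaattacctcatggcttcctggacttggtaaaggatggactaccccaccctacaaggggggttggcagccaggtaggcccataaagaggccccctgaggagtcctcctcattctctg
The Cxcl1 window held 2 matches to the NF-kappaB letters, at bases -102 to -93 and -84 to -75 from the start. The Ptgs2 and Lcn2 windows each held 1 match to the C/EBP letters, at -140 to -133 and at -191 to -184, and the Icam1 window held 1 match to the STAT letters at -107 to -99. A match is only a match of letters. All 4 windows shown held a match, and they do not stand for the lower genes as a whole, whose shares are given below. The shares of all 27457 promoters listed were 4.28% for the NF-kappaB letters, 9.2% for C/EBP, 6.36% for AP-1 and 7.52% for STAT. Among the 132 promoters found for genes called lower under NGAL these shares were 6.82%, 6.82%, 7.58% and 10.6%, among the 71 found for genes called higher 4.23%, 11.3%, 5.63% and 9.86%, and among the 9445 promoters of genes tested 4.54%, 7.31%, 4.38% and 5.75%.

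The arrays of the same treatment and day correlated at 0.981 to 0.988 over all genes. The mean log2 level of the 12 nephron progenitor genes tested was 8.68 to 9.41 over the 8 arrays, above the signal threshold of 5.79, and that of the 13 ureteric bud and collecting duct genes was 5.48 to 5.82. Some technical measures differed between the arrays compared. The 5S ribosomal RNA probe set read log2 7.10 and 6.85 in NGAL and 7.04 and 7.02 in ANX on day 1. On day 2 it read 9.63 and 9.36 in NGAL but 7.11 and 7.47 in ANX, so that it stood 2.20 higher under NGAL on day 2 and differed by -0.06 on day 1. The mean difference over both days, 1.07, had an exact two-sided permutation p of 0.222, where 36 arrangements within days allow no p below 0.0556. A spiked-in control transcript, dap, gives a log2 ratio of its 3' over its 5' signal, which was 1.63 and 0.91 in NGAL and 0.88 and 0.84 in ANX on day 1, and 1.48 and 2.15 in NGAL and 1.05 and 2.35 in ANX on day 2. Its mean difference of 0.26 had an exact permutation p of 0.556. NGAL day 1 replicate 1 and ANX day 2 replicate 2 lay above their replicates by this ratio and are the 2 arrays left out together below. The NGAL replicates of day 2 lay nearly as far apart as those of day 1. The same ratio of the tissue's own transcripts Gapdh and beta-actin had mean differences of 0.13 and 0.25, with exact permutation p of 0.222 and 0.389. In the dap, Gapdh and beta-actin ratios alike, both NGAL arrays lay above both ANX arrays on day 1, and the treatments overlapped on day 2.

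**Figure D1:**
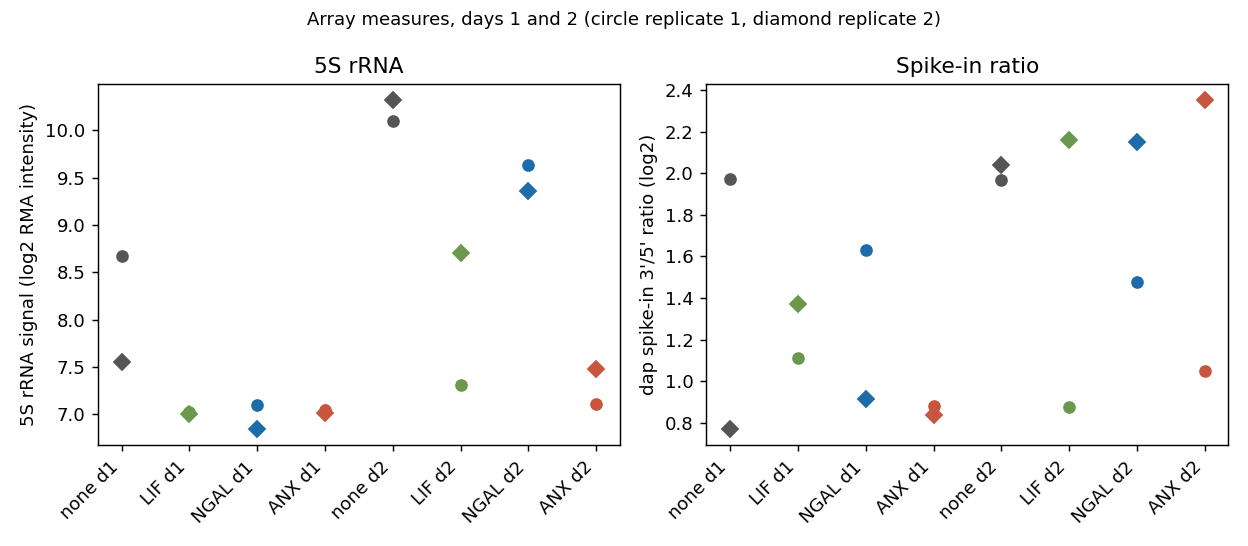
The 5S ribosomal RNA signal (left, log2 RMA intensity) and the dap spike-in's 3' over 5' signal (right, log2) are plotted for each array of days 1 and 2, with "none" for uninduced control, circles for replicate 1 and diamonds for replicate 2. The 2 NGAL arrays of day 2 lie at 9.63 and 9.36 in 5S signal, above the 2 ANX arrays of that day at 7.11 and 7.47, while on day 1 the 4 arrays lie between 6.85 and 7.10.

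The chemokines Cxcl1 and Ccl2, cyclooxygenase 2 (Ptgs2) and 7 other genes of the 29 tested on the chemokine and NF-kappaB list were lower in the NGAL cultures than in the ANX cultures. The genes higher under NGAL were fewer and included Foxp2 and Bnc2, transcription factors of the renal stroma list. Of 11388 genes tested with limma, 241 (2.12%) differed at a Benjamini-Hochberg adjusted p under 0.05, 155 lower under NGAL (1.36%) and 86 higher (0.755%). The median log2 difference was -0.74 over the 155 lower genes and 0.73 over the 86 higher genes, against -0.01 over all genes tested. At least a 2-fold difference was seen for 56 of the lower and 26 of the higher genes, and at least 4-fold for 8 and 5. The number of calls depended on single arrays. It was 55 without ANX day 1 replicate 1, 67 without NGAL day 1 replicate 1, 89 without ANX day 2 replicate 1, 105 without NGAL day 2 replicate 1, 108 without ANX day 2 replicate 2 and 123 without NGAL day 2 replicate 2. Without those 2 arrays of higher dap ratio, 33 genes were called.

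With the 5S signal as a covariate, 52 genes were called, 45 lower (0.395%) and 7 higher (0.0615%). Of the 155 lower genes 45 kept the call in that fit, and of the 86 higher genes 6 did. The difference kept its sign there for all 155 and all 86 genes. Leaving out any 1 of the 8 arrays in turn kept the call of 35 lower and 6 higher genes, and 31 lower and 3 higher genes kept it both ways. This covariate was fitted beside the group means, so its slope rests on differences between replicates. Since the 5S signal stood apart between the treatments on day 2, a kept or lost call cannot decide its part. That part was not tested for any gene, whether its call was kept or not.

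**Figure D2:**
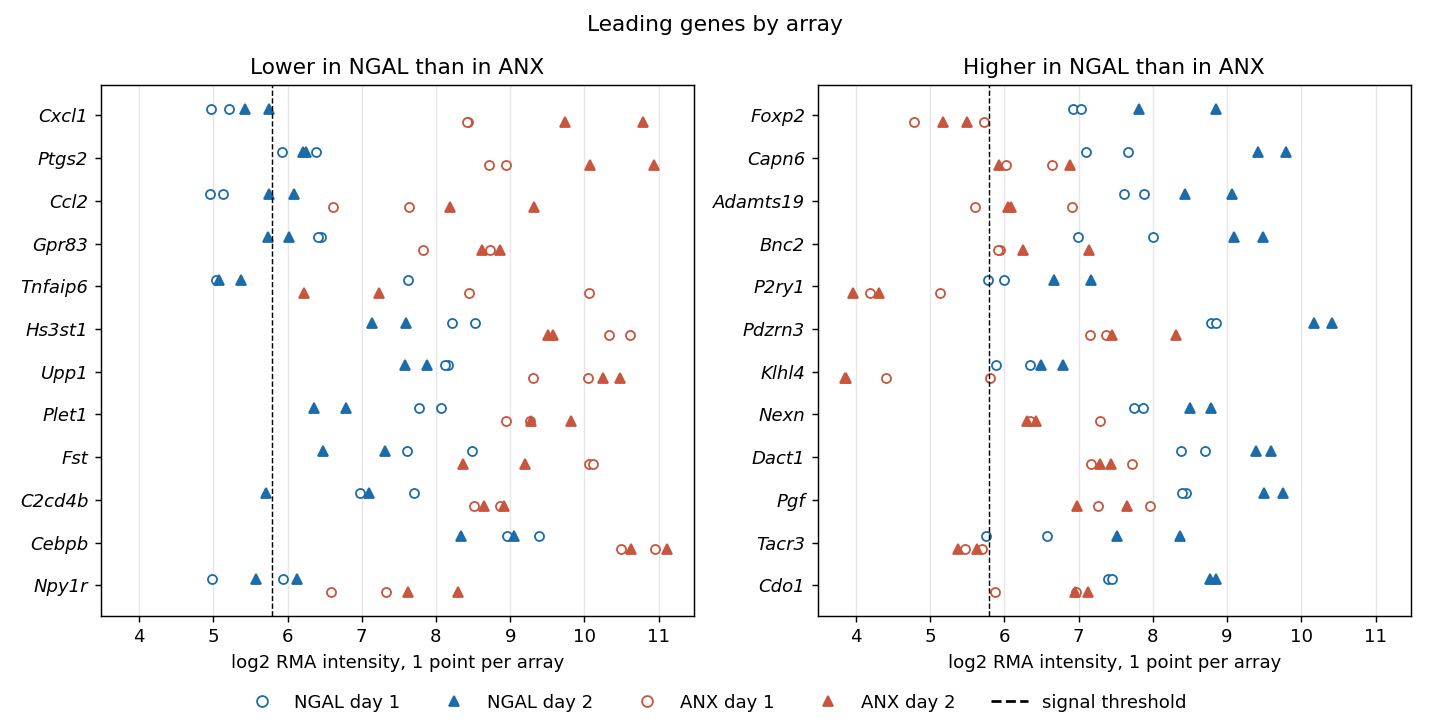
Log2 RMA intensity on each of the 8 arrays is shown for the 12 genes with the largest lower and the 12 with the largest higher level under NGAL (open circles day 1, filled triangles day 2; the dashed line marks the signal threshold of 5.79). For these genes the NGAL and ANX arrays do not overlap on either day, which was part of how they were chosen, and Cxcl1 spans 4.97 to 5.75 under NGAL and 8.42 to 10.78 under ANX.

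Among the chemokines, Cxcl1, a neutrophil-attracting chemokine, had the largest difference of the lower genes shown. Its log2 level was 5.21 and 4.97 under NGAL and 8.43 and 8.42 under ANX on day 1, and 5.75 and 5.43 under NGAL and 9.74 and 10.78 under ANX on day 2. All 4 NGAL arrays lay below the signal threshold of log2 5.79 and all 4 ANX arrays above it. The difference was -4.00 on the log2 scale (SE 0.47, limma adjusted p 5.77e-05), and with levels below the threshold set to it, -3.56. Ccl2, a monocyte-attracting chemokine, read 5.13 and 4.95 under NGAL and 6.61 and 7.64 under ANX on day 1, and 6.09 and 5.75 against 8.20 and 9.32 on day 2. The groups did not overlap on either day, and the difference was -2.46 (SE 0.39, adjusted p 0.00108, -2.09 with the threshold as floor). Not every chemokine differed: Cxcl12, which guides CXCR4-bearing cells, had a log2 difference of 1.52 (adjusted p 0.118), Cxcl2 -0.73 (adjusted p 0.323) and Cxcl10 -1.08 (adjusted p 0.189), none of them past the test.

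Ptgs2, cyclooxygenase 2, the inducible enzyme of prostaglandin synthesis, read 6.39 and 5.92 under NGAL and 8.71 and 8.94 under ANX on day 1. On day 2 it read 6.21 and 6.25 under NGAL and 10.08 and 10.93 under ANX. The NGAL arrays stayed between 5.92 and 6.39 over both days, whereas the ANX arrays were higher on day 2 than on day 1. The log2 difference was -3.47 (SE 0.46, adjusted p 0.000206). Ptges, the prostaglandin E synthase, had a difference of -0.12 that did not pass the test. The Cxcl1, Ccl2 and Ptgs2 calls held without any 1 of the 8 arrays and with the 5S covariate (adjusted p 0.00174, 0.00426 and 0.00195).

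Of the 29 genes tested on the chemokine and NF-kappaB list, 10 were lower under NGAL and 0 higher, where 1.36% and 0.755% of all genes were. Their median log2 difference was -0.47 against -0.01 over all genes, and 25 of 29 lay below 0, against 53.5% of all genes. A lean below 0 was not particular to this list, since 27 of 30 proliferation genes and 12 of 13 p53 targets lay there too. The median of the chemokine and NF-kappaB list was -0.35 on day 1 and -0.46 on day 2. The 5S signal differed between treatments on day 2, and its part in these medians was not tested. The 10 genes were Cxcl1, Ccl2, Ptgs2, Icam1, Nfkbiz, Nfkb1, Bcl3, Sod2, Lcn2 and Tnfaip6, all named because the list was counted, some of them after their values were seen. With the 5S covariate 8 members were called, and without the 2 arrays apart in the dap ratio 5 were.

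Icam1, a leukocyte adhesion molecule, read 7.59 and 8.29 under NGAL and 9.23 and 9.15 under ANX on day 1, and 7.87 and 8.57 against 9.54 and 9.84 on day 2. Every ANX array exceeded every NGAL array, and the log2 difference was -1.36 (SE 0.22, adjusted p 0.00148). Sod2, the mitochondrial superoxide dismutase, differed by -0.86 (SE 0.15, adjusted p 0.00227) and Nfkb1, the precursor of the p50 subunit of NF-kappaB, by -0.58 (SE 0.09, adjusted p 0.00108). For Nfkb1 the 4 NGAL arrays read 8.79, 8.87, 8.66 and 8.63 and the 4 ANX arrays 9.26, 9.09, 9.46 and 9.46, without overlap. Nfkbia, the inhibitor that retains NF-kappaB in the cytoplasm, had a difference of -0.47 (adjusted p 0.23) and Tnfaip3, a feedback inhibitor of the pathway, -0.31, neither past the test. Il6, Il1b and Csf3 were not tested because no group mean exceeded the signal threshold.

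Bcl3, a nuclear partner of the p50 and p52 NF-kappaB subunits, differed by -1.65 (SE 0.27, adjusted p 0.00152), while its other 2 probe sets gave -0.82 and -0.65. Tnfaip6, a hyaluronan-binding protein induced by inflammation, was uneven between replicates. It read 5.04 and 7.63 under NGAL and 10.06 and 8.45 under ANX on day 1, and 5.07 and 5.38 against 7.24 and 6.22 on day 2. Its difference of -2.21 (SE 0.59) had an adjusted p of 0.0462, and the call ended without any 1 of 6 arrays (all but replicate 2 of each treatment on day 1), with adjusted p from 0.0698 to 0.347. Nfkbiz, a nuclear NF-kappaB regulator, differed by -1.30 (adjusted p 0.0498), a call that ended in all 8 fits without 1 array (0.0533 to 0.217), and its other probe set gave 0.09.

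On the LIF and STAT3 response list, Cebpb, which encodes C/EBP-beta, read 8.96 and 9.38 under NGAL and 10.95 and 10.49 under ANX on day 1, and 9.05 and 8.33 against 11.11 and 10.63 on day 2. The ANX arrays lay above all NGAL arrays, with a log2 difference of -1.86 (SE 0.31, adjusted p 0.00146) that held without any 1 array and with the 5S covariate (0.0311). That list held 4 genes lower under NGAL among 25 tested, Cebpb, Bcl3, Il4r and Irf1, and none higher. Of all genes tested 1.36% were lower and 0.755% higher. Bcl3 is also counted on the chemokine and NF-kappaB list. The median of the LIF and STAT3 list was -0.32, and 24 of its 25 genes lay below 0, against 53.5% of all genes. All 4 kept the call with the 5S covariate, and 2 without the 2 arrays apart in the dap ratio. Il4r, the interleukin 4 receptor, differed by -0.52 (SE 0.09, adjusted p 0.00271), on a probe set that can bind related transcripts. Irf1, an interferon-regulated factor, differed by -0.63 (adjusted p 0.0132), and its call ended without ANX day 1 replicate 1 (0.0584), ANX day 2 replicate 2 (0.0569), NGAL day 1 replicate 1 (0.122) or NGAL day 2 replicate 1 (0.0685). Socs3, the feedback inhibitor of STAT3, read 6.70 and 6.55 under NGAL and 7.70 and 6.88 under ANX on day 1, and 6.87 and 6.64 against 7.31 and 7.04 on day 2. The NGAL arrays were the lower ones on each day, but the difference of -0.54 did not pass the test (adjusted p 0.225).

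Several of the largest differences lay outside inflammation. Gpr83, a G protein-coupled receptor known to be induced by glucocorticoid, read 6.45 and 6.41 under NGAL and 8.73 and 7.83 under ANX on day 1, and 6.01 and 5.74 against 8.62 and 8.86 on day 2. The groups were apart on both days, and its log2 difference of -2.36 (SE 0.25) had the adjusted p 1.59e-05. Hs3st1, a heparan sulfate 3-O-sulfotransferase, read 8.21 and 8.52 under NGAL and 10.33 and 10.62 under ANX on day 1, and 7.59 and 7.14 against 9.51 and 9.58 on day 2. It was lower by about the same amount on both days, -2.11 and -2.18, with a mean of -2.14 (SE 0.35, adjusted p 0.00146). Upp1, uridine phosphorylase 1, differed by -2.08 (SE 0.32, adjusted p 0.000977) and Plet1, a membrane protein of placental and epithelial cells, by -2.08 (SE 0.32, adjusted p 0.00108), with its 2 other probe sets at -1.76 and -1.71. All of these calls held without any 1 array and with the 5S covariate.

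The calls of C2cd4b and C2cd4a, a pair of related genes known to be induced by cytokines in endothelial cells, also held without any 1 array and with that covariate, at -1.86 (SE 0.29, adjusted p 0.00108) and -1.53 (SE 0.27, adjusted p 0.00281). Among genes named after their values were seen, for the same steadiness, were Steap1, a metalloreductase-family membrane protein (-1.41, SE 0.25, adjusted p 0.00278), Slc1a5, a glutamine transporter (-1.31, SE 0.24, adjusted p 0.00318), Rasd1, a dexamethasone-induced Ras-like protein (-1.43, SE 0.28, adjusted p 0.00655), Stc1, the secreted glycoprotein stanniocalcin 1 (-1.07, SE 0.19, adjusted p 0.00327), and Acsl4, a ligase of long-chain fatty acids (-1.02, SE 0.16, adjusted p 0.00108). Slc1a5 read 8.84 and 8.76 under NGAL and 9.69 and 9.84 under ANX on day 1, and 7.99 and 7.92 against 9.58 and 9.65 on day 2. Its replicates lay close together in each of the 4 groups, and the groups were apart on both days.

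Follistatin and BMP pathway genes differed in part. Fst, follistatin, which binds and blocks activin, read 7.61 and 8.48 under NGAL and 10.07 and 10.12 under ANX on day 1, and 6.48 and 7.31 against 9.19 and 8.37 on day 2. The NGAL arrays were the lower ones on each day, and both treatments were lower on day 2. The log2 difference of -1.97 (SE 0.38) had an adjusted p of 0.00655, which became 0.059 without NGAL day 1 replicate 1 and 0.144 with the 5S covariate. Id1, an inhibitor of basic helix-loop-helix factors and a known BMP target, read 10.24 and 10.12 under NGAL and 11.19 and 10.84 under ANX on day 1, and 9.67 and 9.02 against 10.79 and 10.58 on day 2. It differed by -1.09 (SE 0.14, adjusted p 0.000135) on a probe set that can bind related transcripts, and the call held without any 1 array and with the 5S covariate.

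The 24 follistatin, activin and BMP genes tested had a median of -0.07. Of them 5 were lower under NGAL and 0 higher, against 1.36% and 0.755% of all genes. Besides Fst and Id1 these were the ligand Bmp5 (-1.26, -0.73 with the threshold as floor), the BMP antagonist Nog, noggin (-1.06, -0.83 with the floor), and the pseudoreceptor Bambi (-0.61). The last 3 calls did not hold in every fit without 1 array. That of Bmp5 (adjusted p 0.0155) ended without any 1 of 5 arrays, all but NGAL day 1 replicate 2, NGAL day 2 replicate 1 and ANX day 1 replicate 2, with adjusted p up to 0.103. That of Bambi (adjusted p 0.0326) ended without any 1 of 6, all but NGAL day 1 replicate 1 and ANX day 1 replicate 2, with adjusted p up to 0.168. That of Nog (adjusted p 0.045) ended in 7 of 8 fits, with adjusted p from 0.0571 to 0.264. With the 5S covariate 1 member, Id1, was called, and without the 2 arrays apart in the dap ratio 1 was. Inhba, the activin A subunit, had a difference of 0.75 that did not pass the test.

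For the genes of nephron induction, Pax8, a transcription factor of the induced mesenchyme, read 8.09 and 8.44 under NGAL and 9.70 and 8.73 under ANX on day 1, and 6.99 and 7.67 against 8.75 and 8.73 on day 2. The NGAL arrays were the lower ones on each day, with a difference of -1.18 (SE 0.31, adjusted p 0.045). Jag1, a Notch ligand, read 7.13 and 6.61 under NGAL and 8.08 and 6.99 under ANX on day 1, and 6.44 and 6.07 against 7.84 and 7.57 on day 2. Its arrays overlapped on day 1 and not on day 2, and the difference was -1.06 (SE 0.26, adjusted p 0.0313). Both calls ended in 7 of 8 fits without 1 array, all but the one without ANX day 1 replicate 2 (Pax8 0.0591 to 0.272, Jag1 0.0567 to 0.241), and with the 5S covariate (0.345 and 0.135).

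Wnt4, the Wnt ligand of the mesenchyme-to-epithelium transition, read 7.67 and 8.71 under NGAL and 9.48 and 8.68 under ANX on day 1, and 8.16 and 8.17 against 7.61 and 8.74 on day 2. The arrays overlapped on both days, and the difference of -0.45 did not pass the test (adjusted p 0.629). Pax8 and Jag1 were the 2 members called of 14 early induction genes tested, whose median was -0.19. Of all genes tested 1.36% were called lower. Jag1 was also the 1 member called of 15 Notch genes. Of 12 nephron progenitor genes tested none passed the test in either direction, with a median of -0.15 and a lowest limma adjusted p of 0.155. Of these genes 9 lay below 0 and 3 above, where 53.5% of all genes lay below. On days 3 to 7, 9 of the 12 were lower under NGAL and 0 higher, against 21.2% and 14.8% of all genes. On days 1 and 2 Wt1 differed by -0.30, Eya1 by 0.14 and Sall1 by -0.12. Six2, Cited1 and Osr1 had no probe set assigned to them alone. Of 17 epithelial junction and keratin genes, 1, the desmosomal cadherin Dsc2, was lower (-1.24, adjusted p 0.0115), with all 4 group means below the signal threshold. Its call ended without ANX day 1 replicate 1 (0.0781), ANX day 2 replicate 2 (0.053) or NGAL day 2 replicate 1 (0.0533).

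Among genes of FGF and MAPK signalling, the stress-response gene Ier3 read 9.84 and 10.20 under NGAL and 11.51 and 11.63 under ANX on day 1, and 9.99 and 10.06 against 11.54 and 11.55 on day 2. Every ANX array lay more than 1 log2 unit above every NGAL array, and the difference of -1.54 (SE 0.21, adjusted p 0.00035) held without any 1 array and with the 5S covariate. Of 18 FGF and MAPK response genes tested, 2 were lower under NGAL, Ier3 and the AP-1 subunit Fosl1, with a list median of -0.38. Of all genes tested 1.36% were lower. The call of Fosl1 (-0.41, adjusted p 0.0306) ended in 7 of 8 fits without 1 array (0.0616 to 0.14). The feedback inhibitors of the pathway did not pass the test: Dusp6, a phosphatase of ERK, had -0.37 (adjusted p 0.377), Spry4 -0.51 and Spry1 -0.51. Egr1 (0.22), Fos (-0.34) and Jun (0.37) of the immediate early list also did not pass, and Ier3 and Fosl1 were again the 2 called of its 18 genes.

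Of the matrix proteases and inhibitors, 2 of 18 were lower, Mmp9 (-0.94, adjusted p 0.0014) and Mmp3 (-1.32, adjusted p 0.0313). Among all genes tested 1.36% were lower. Mmp9, gelatinase B, read 4.42 and 4.37 under NGAL and 4.96 and 4.94 under ANX on day 1, 4.41 and 4.66 against 5.52 and 6.22 on day 2. Its level passed the threshold on 1 array only, and with the threshold as floor the difference was -0.04. For Mmp3, stromelysin 1, the floored value was -0.30 and the call ended without any 1 of 6 arrays, all but ANX day 1 replicate 2 and ANX day 2 replicate 1, with adjusted p up to 0.198.

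In metabolism, the lists leaned one way with few calls, where 1.36% of all genes tested were called lower. All 18 cholesterol synthesis genes tested had a difference below 0, against 53.5% of all genes, with a median of -0.42, and none passed the test (lowest adjusted p 0.0525, Fdps, farnesyl diphosphate synthase, -0.54). All 21 amino acid stress genes lay below 0 as well, with a median of -0.47, and 1, Phgdh, the first enzyme of serine synthesis, was lower (-0.84, adjusted p 0.0498). The Phgdh call ended in 7 of 8 fits without 1 array (0.0514 to 0.253). The day 2 medians of both lists, -0.62 and -0.84, were further from 0 than the day 1 medians of -0.17 and -0.25. With the 5S covariate the medians over both days were -0.25 and -0.36. The 5S signal differed between treatments on day 2, and its part in these medians was not tested. Of 28 hypoxia and glycolysis genes 1, lactate dehydrogenase Ldha, was lower (-0.44, adjusted p 0.0466), and its call also ended in 7 of 8 fits (0.0792 to 0.301). No proliferation gene of 30 passed, with a median of -0.14 and 27 of the 30 below 0.

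Among the genes higher under NGAL, Foxp2, a forkhead transcription factor of the renal stroma list, had the largest difference. It read 6.92 and 7.03 under NGAL and 4.79 and 5.73 under ANX on day 1, and 7.81 and 8.86 against 5.17 and 5.49 on day 2. All 4 ANX arrays lay below the signal threshold and all 4 NGAL arrays above it. The log2 difference was 2.36 (SE 0.41, adjusted p 0.00232), or 1.87 with the threshold as floor, and it held without any 1 array, while with the 5S covariate the adjusted p was 0.0568. Bnc2, the zinc finger factor basonuclin 2, read 8.0 and 6.99 under NGAL and 5.93 and 5.92 under ANX on day 1, and 9.48 and 9.09 against 6.25 and 7.13 on day 2. Its groups were apart on both days, with a difference of 2.08 (SE 0.51, adjusted p 0.0313), a call that ended without any 1 of 7 arrays, all but NGAL day 1 replicate 2, with adjusted p up to 0.191.

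Capn6, a microtubule-associated calpain without protease activity, read 7.10 and 7.67 under NGAL and 6.02 and 6.63 under ANX on day 1, and 9.79 and 9.42 against 5.92 and 6.88 on day 2. The NGAL arrays were the higher ones on each day, with a difference of 2.13 (SE 0.57, adjusted p 0.0458), and the call ended in all 8 fits without 1 array (0.0653 to 0.212). Foxp2, Bnc2 and Capn6 were the 3 called of 24 renal stroma genes tested, and none was lower. Of all genes tested 0.755% were higher. The median of the list was 0.40, with 0.25 on day 1 and 0.60 on day 2, and with the 5S covariate it was 0.25 with no member called. Without the 2 arrays apart in the dap ratio 1 member was called. Tcf21, a stromal transcription factor, had -0.07, Meis1 0.43 and Pdgfra 0.37, none past the test, and Foxd1 had no probe set assigned to it alone.

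Pgf, placental growth factor, a ligand of VEGF receptor 1, read 8.44 and 8.39 under NGAL and 7.26 and 7.96 under ANX on day 1, and 9.50 and 9.75 against 6.98 and 7.65 on day 2. It was higher under NGAL on both days by 1.56 on average (SE 0.27, adjusted p 0.00239), which held without any 1 array and had an adjusted p of 0.0604 with the 5S covariate. Dact1, an antagonist of Dishevelled in Wnt signalling, read 8.37 and 8.71 under NGAL and 7.17 and 7.72 under ANX on day 1, and 9.59 and 9.39 against 7.43 and 7.28 on day 2. Its groups did not overlap, and the difference of 1.61 (SE 0.31, adjusted p 0.00655) had an adjusted p of 0.0562 without ANX day 1 replicate 1. Cdo1, cysteine dioxygenase, which degrades cysteine, was higher by 1.39 (SE 0.27, adjusted p 0.00736; 0.0807 without the same array), and Nexn, the actin-binding protein nexilin, on a probe set that can bind related transcripts, by 1.63 (SE 0.34, adjusted p 0.0104; 0.0916 without it).

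The 3 higher genes that held both without any 1 array and with the 5S covariate were Sertad4, Bcl2l11 and Arhgef26, named after their values were seen. Sertad4, a SERTA domain protein, read 8.35 and 8.45 under NGAL and 7.10 and 7.56 under ANX on day 1, and 9.18 and 9.09 against 7.88 and 8.18 on day 2, a difference of 1.09 (SE 0.16, adjusted p 0.000626). Bcl2l11, which encodes the death-promoting protein Bim, differed by 0.89 (SE 0.14, adjusted p 0.00108), although its other probe set gave -0.02. Arhgef26, a guanine nucleotide exchange factor, differed by 0.70 (SE 0.13, adjusted p 0.00445), and its other probe set gave 1.79. The remaining large differences were less steady. The call of Adamts19, a secreted metalloprotease (2.09, adjusted p 0.0115), ended without ANX day 1 replicate 1 (0.109), ANX day 2 replicate 1 (0.0509) or NGAL day 2 replicate 1 (0.0588). That of Pdzrn3, a ubiquitin ligase (1.99, adjusted p 0.0217), ended in 5 of 8 fits, all but those without NGAL day 1 replicate 2, ANX day 1 replicate 2 and ANX day 2 replicate 2, with adjusted p up to 0.129.

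Matrix and contractile genes leaned higher under NGAL without passing the test. Of 23 collagen and small proteoglycan genes 19 lay above 0, against 46.5% of all genes, with a median of 0.29 (0.19 on day 1 and 0.80 on day 2), and 0 were called; Col1a1 differed by 1.29 (adjusted p 0.343) and decorin, Dcn, by 1.11 (adjusted p 0.377). Of 21 TGF-beta and contractile targets 17 lay above 0, with a median of 0.37 and no call. In mean log2 level the arrays overlapped on day 1 for both lists. The collagen list read 8.19 and 8.10 under NGAL and 7.62 and 8.33 under ANX on day 1, and 8.49 and 8.70 against 7.84 and 7.83 on day 2. The contractile list read 8.56 and 9.20 against 8.42 and 8.86 on day 1, and 9.07 and 9.96 against 8.57 and 8.49 on day 2. Ccn2, connective tissue growth factor, a known TGF-beta target, read 6.24 and 9.35 under NGAL and 5.13 and 5.96 under ANX on day 1, and 8.56 and 11.64 against 6.47 and 5.73 on day 2. On each day 1 NGAL array stood far above the other, and the difference of 3.12 (SE 0.94) had an adjusted p of 0.0792.

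**Figure D3:**
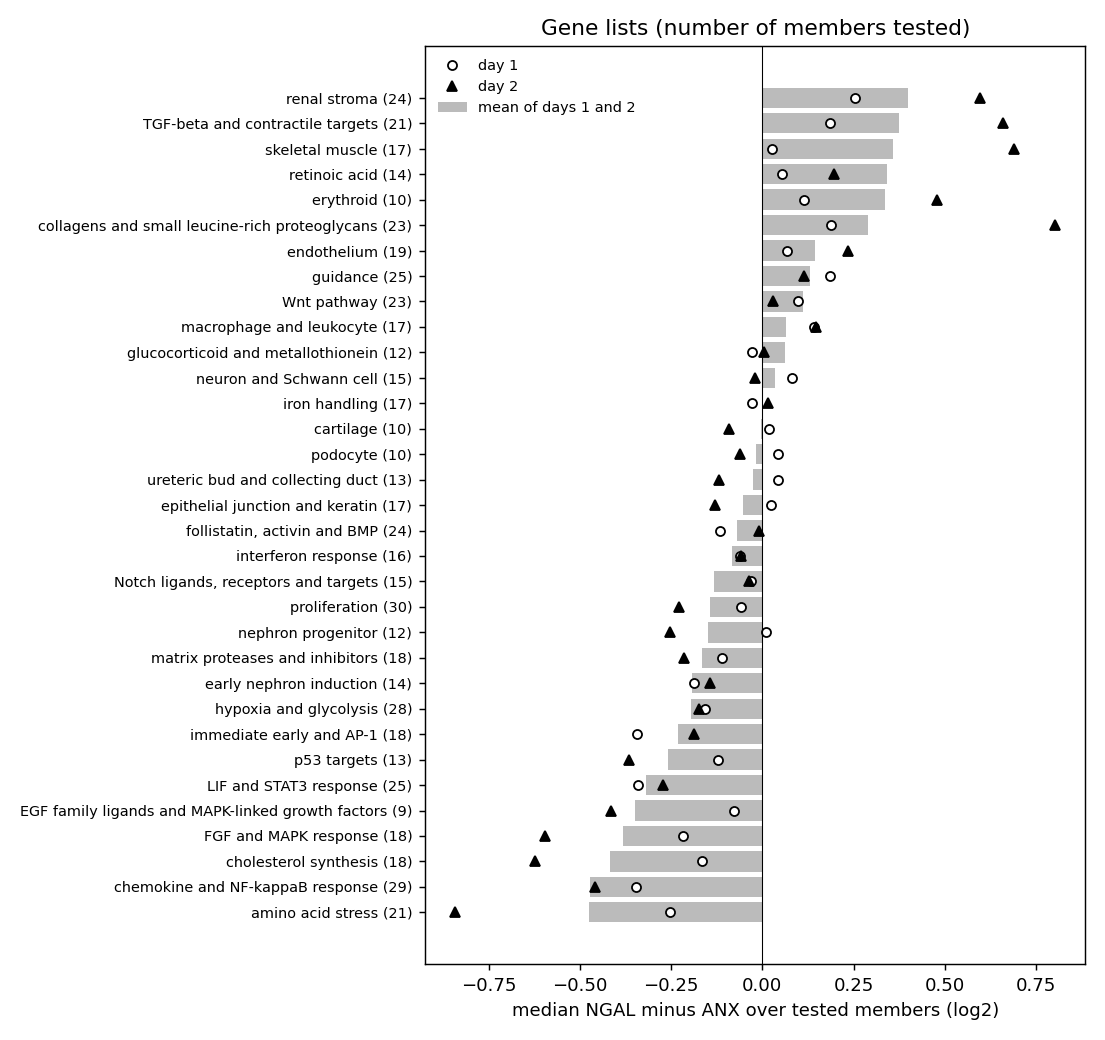
For each gene list the grey bar gives the median log2 difference NGAL minus ANX over its tested members as the mean of days 1 and 2, the open circle that of day 1 and the triangle that of day 2, with the number of members in parentheses. The amino acid stress and chemokine lists have the lowest medians, both at -0.47, and the renal stroma list has the highest, at 0.40.

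Genes of iron handling were examined because NGAL carries iron. Lcn2, which encodes NGAL, read 5.24 and 5.13 under NGAL and 6.20 and 6.69 under ANX on day 1, and 5.12 and 5.05 against 7.16 and 6.88 on day 2. The transcript was below the signal threshold in all 4 cultures that received the protein and above it in all 4 that received ANX. Its difference was -1.59 (SE 0.28, adjusted p 0.00304), or -0.94 with the threshold as floor, and it held without any 1 array and with the 5S covariate (0.0311). Slc40a1, ferroportin, the iron exporter, read 8.79 and 8.62 under NGAL and 7.66 and 7.96 under ANX on day 1, and 9.71 and 8.76 against 7.62 and 7.26 on day 2. It was higher under NGAL by 1.35 (SE 0.31, adjusted p 0.023), and the call ended in 5 of 8 fits, all but those without NGAL day 1 replicate 2, NGAL day 2 replicate 2 and ANX day 1 replicate 2, with adjusted p up to 0.123, and with the 5S covariate (0.318). Lcn2 and Slc40a1 were the 2 called of 17 iron genes, against 2.12% of all genes called in either direction. The transferrin receptor Tfrc had -0.63 and the NGAL receptor Slc22a17 0.10, neither past the test.

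Markers of other cell types were counted in the same fit. Of 10 erythroid genes 1, the embryonic globin Hbz, was higher under NGAL (1.27, adjusted p 0.0455), with 9 of 10 above 0. Among all genes tested 0.755% were higher and 46.5% lay above 0. Hbz read 11.31 and 10.87 under NGAL and 10.52 and 11.16 under ANX on day 1, and 11.08 and 10.16 against 8.46 and 8.21 on day 2. The groups overlapped on day 1 and lay apart on day 2, and the call ended without any 1 of 6 arrays, all but NGAL day 2 replicate 2 and ANX day 1 replicate 2, with adjusted p up to 0.239. The log2 summed intensity of the erythroid genes was 13.51 and 13.45 under NGAL and 13.14 and 13.49 under ANX on day 1, and 13.25 and 12.61 against 12.05 and 11.96 on day 2. Whether blood cells have a part in other genes higher under NGAL was not tested.

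For skeletal muscle genes, whose 17 tested members had a median of 0.36 and no call, the log2 summed intensity was 11.60 and 11.62 under NGAL and 11.41 and 11.64 under ANX on day 1, and 12.18 and 12.59 against 11.61 and 11.75 on day 2. The same measure of the renal stroma genes was 15.22 and 15.16 against 14.64 and 15.15 on day 1, and 15.57 and 15.38 against 14.85 and 14.70 on day 2. Both levels stood higher under NGAL on day 2, and the part of muscle cells in the stromal values was not tested. Of 17 macrophage and leukocyte genes 1, Coro1a, an actin regulator of leukocytes, was lower (-1.07, adjusted p 0.0172), while Cd68 had -0.06 and C1qa 0.38. The median of this list was 0.06, with 12 of its 17 genes above 0, against 46.5% of all genes. Of all genes tested 1.36% were lower. Csf1r and Ptprc lay below the signal threshold in all groups of the series. The Coro1a call ended without any 1 of 6 arrays, all but NGAL day 1 replicate 2 and NGAL day 2 replicate 2 (adjusted p up to 0.089). Of 19 endothelial genes 1, the VEGF receptor Flt1, was lower (-1.03, adjusted p 0.0401, -0.59 with the floor), a call that ended in all 8 fits without 1 array (0.0545 to 0.188); its other probe set gave -0.21, and Pecam1 had 0.15. The median of the endothelial list was 0.15, with 12 of its 19 genes above 0. No gene of the ureteric bud list (13 tested, median -0.03), the cartilage list (10 tested) or the podocyte list (10 tested) passed the test.

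The remaining lists held few calls, where 1.36% of all genes tested were lower and 0.755% higher. Frzb, a secreted Wnt antagonist, was the 1 gene lower of 23 in the Wnt pathway (-1.18, adjusted p 0.0179), and its call ended without ANX day 1 replicate 1 (0.0994), ANX day 2 replicate 1 (0.133), NGAL day 1 replicate 1 (0.0612) or NGAL day 2 replicate 2 (0.0871). Sema6d, a transmembrane semaphorin, was the 1 lower of 25 guidance genes (-0.88, adjusted p 0.012), a call that ended without the same 4 arrays (0.059 to 0.0781). Of 13 p53 targets 1, the cell cycle inhibitor Cdkn1a, was lower (-1.16, adjusted p 0.025), and this call ended in 5 of 8 fits, all but those without NGAL day 1 replicate 2, NGAL day 2 replicate 2 and ANX day 1 replicate 2 (up to 0.123). Of 15 neuron and Schwann cell genes, Dcx, doublecortin of migrating neurons, was higher (1.01, adjusted p 0.0139, 0.39 with the floor; 0.0579 to 0.0805 without ANX day 1 replicate 1, ANX day 2 replicate 1 or NGAL day 2 replicate 1). Snap25, a synaptic membrane fusion protein, was lower (-0.96, adjusted p 0.0301), and its call ended in 7 of 8 fits, all but the one without NGAL day 2 replicate 1. Irf1 was the 1 called of 16 interferon response genes. No gene passed among 14 of retinoic acid signalling (median 0.34), 9 EGF family ligands and linked growth factors (median -0.35) and 12 glucocorticoid and metallothionein genes (median 0.06).

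Day by day, day 1 alone gave no call. With limma 0 of 11388 genes passed on day 1 (0%), 417 had an unadjusted p under 0.05 (3.66%), and the lowest adjusted p was 0.11. Day 2 alone gave 117 calls (1.03%), 37 higher (0.325%) and 80 lower (0.702%), and this number fell to 33 without either NGAL array of day 2, to 18 without ANX day 2 replicate 1 and to 5 without ANX day 2 replicate 2. With the 5S covariate 1 gene was called on day 2. The change of the difference from day 1 to day 2 was itself tested, and 0 genes passed (0%; 133 at an unadjusted p under 0.05, 1.17%), so no gene was shown to differ on one day more than on the other. The median over the 155 lower genes was -0.55 on day 1 and -0.94 on day 2, and over the 86 higher genes 0.52 and 0.94, in values that the choice of these genes used.

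The genes with the smallest p for a change between days were Ccn1, a matrix-associated signalling protein, at -1.15 on day 1 and 1.35 on day 2 (unadjusted p 0.000596, adjusted p 1), Esm1, an endothelial proteoglycan, at -1.25 and 0.05, and the growth factor Fgf1 at -0.08 and -1.86. Ccn1 read 6.42 and 6.58 under NGAL and 6.83 and 8.47 under ANX on day 1, and 6.58 and 7.98 against 5.98 and 5.87 on day 2. The ANX replicates of day 1 and the NGAL replicates of day 2 stood more than 1 log2 unit apart.

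**Figure D4:**
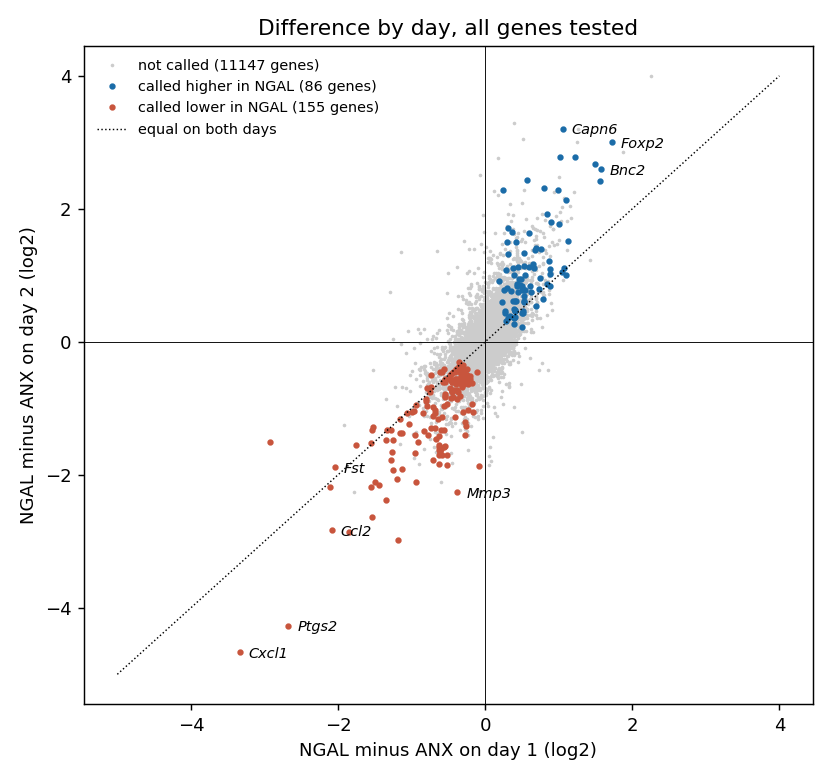
Each point is a gene tested, placed by its log2 difference NGAL minus ANX on day 1 (horizontal) and day 2 (vertical), with genes called lower in red, genes called higher in blue and the dotted line where both days are equal. Cxcl1 lies at -3.33 and -4.67 and Foxp2 at 1.72 and 3.00, and the called genes lie in the lower left and the upper right because the call rests on the mean of both days.

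The same treatments were compared on days 3, 4, 5 and 7, in 16 arrays whose levels do not enter the differences of days 1 and 2, although all 42 arrays share the model's estimate of the spread. There 4095 of the 11388 genes passed the test (36%), 2410 lower (21.2%) and 1685 higher (14.8%). Of the 155 genes lower on days 1 and 2, 108 (69.7%) were lower under NGAL there too and 0 were higher. Of the 86 higher genes, 48 (55.8%) were higher and 0 lower. The sign was the same for 145 and 74 genes. The median difference over these genes was -0.35 and 0.35 on the later days.

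Lcn2 differed by -2.71 on days 3 to 7 (SE 0.20, adjusted p 9.78e-09), with ANX arrays up to 9.35 on day 5. Cxcl1 differed by -2.45 (adjusted p 1.07e-05), Ptgs2 by -2.24 (adjusted p 2.19e-05) and Ccl2 by -1.81 (adjusted p 3.18e-05). On day 7 the treatments overlapped for all 4 of these genes, in each case through NGAL replicate 1 only. NGAL replicate 2 lay below both ANX arrays for each of them. Ptgs2 read 10.75 and 9.41 under NGAL and 10.52 and 9.83 under ANX, Cxcl1 9.67 and 5.99 against 8.30 and 8.28, Ccl2 10.31 and 8.25 against 8.48 and 9.45, and Lcn2 7.73 and 5.40 against 7.29 and 7.84. Among the higher genes Bnc2 differed by 2.71 (adjusted p 8.89e-06), Foxp2 by 2.44 (adjusted p 2.71e-06) and Dact1 by 2.26 (adjusted p 2.43e-07) on the later days. Fst (0.16, adjusted p 0.68), Tnfaip6 (0.11), Icam1 (-0.30, adjusted p 0.138), Cdo1 (0.15) and Capn6 (0.65, adjusted p 0.207) did not pass on days 3 to 7. The difference on days 1 and 2 minus that on days 3 to 7, a contrast added after the data were seen, passed for 127 of all 11388 genes (1.12%). Among them were 9 of the 155 lower and 7 of the 86 higher genes, whose choice used the earlier days.

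**Figure D5:**
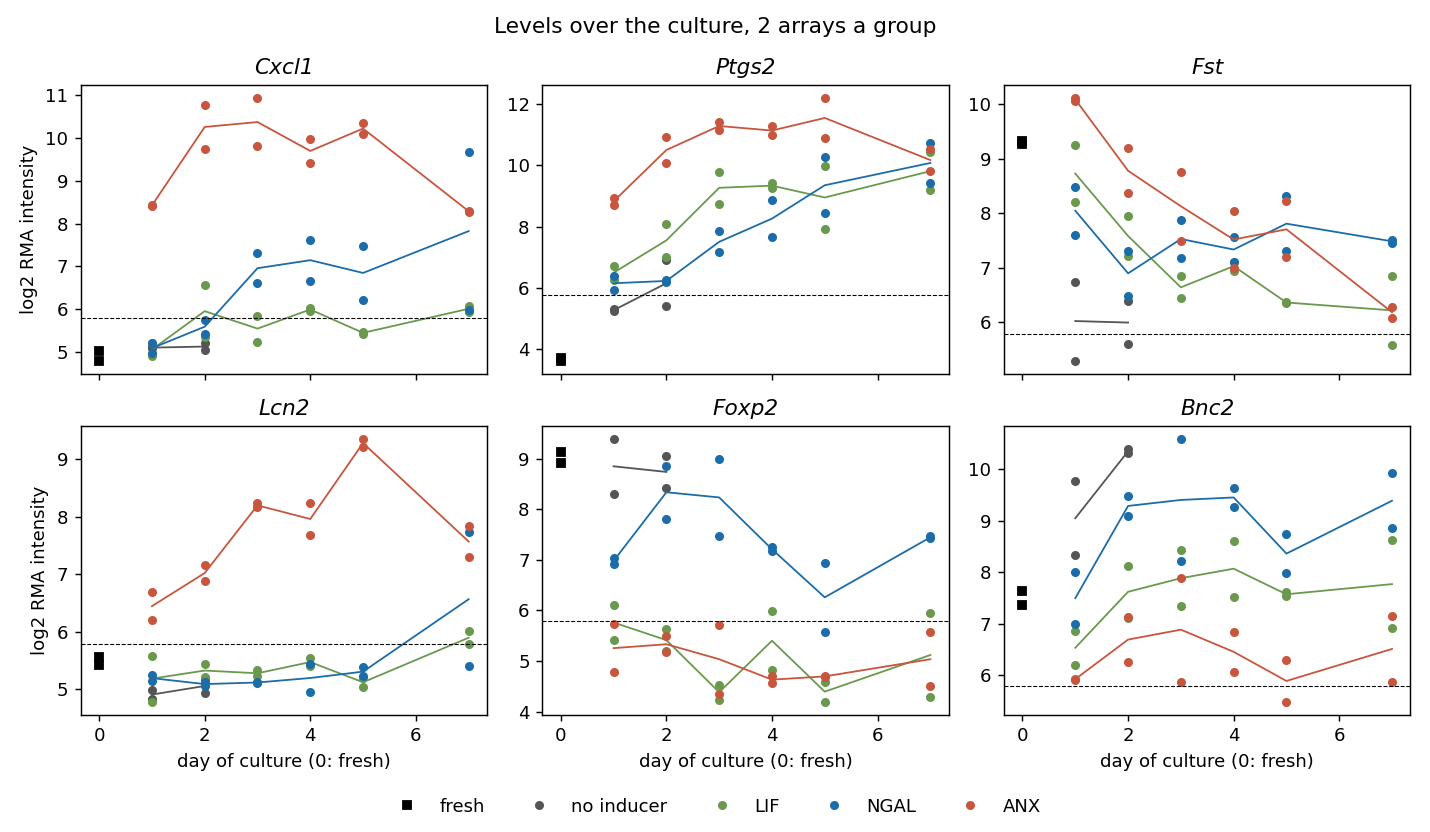
Log2 RMA intensity of 6 genes is plotted against the day of culture for fresh tissue (day 0), uninduced control, LIF, NGAL and ANX, with 1 point per array, lines through the means of 2 arrays and a separate vertical scale for each gene. Lcn2 stays below the signal threshold (dashed) under NGAL except for 1 array of day 7 at 7.73, while under ANX it reaches 9.35, and Fst under ANX goes from 10.12 on day 1 to 6.08 on day 7.

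Levels in uninduced control cultures give the background for both treatments, and these comparisons share the same 4 control arrays, so the values are only set side by side. Against control, NGAL gave 0 calls with limma (0%; 799 genes at an unadjusted p under 0.05, 7.02%; lowest adjusted p 0.101), and ANX gave 2309 (20.3%). The 5S signal of the control arrays was 8.67 and 7.56 on day 1 and 10.10 and 10.32 on day 2, above both ANX arrays on each day and above both NGAL arrays on each day, and its part in these counts was not tested. Cxcl1 stood 0.23 above control under NGAL and 4.23 above it under ANX on the log2 scale, and in cultures with LIF, another inducer of the study, 0.39. Its control arrays read 5.09, 5.12, 5.04 and 5.21, all below the signal threshold. Ptgs2 stood 0.48 above control under NGAL, 3.95 under ANX and 1.31 under LIF, Cebpb -0.08, 1.79 and 1.15, Lcn2 0.16, 1.75 and 0.27, and Fst 1.47, 3.43 and 2.15.

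The 5 genes higher under NGAL that are given here as examples stood below control under all 3 additions. Of all 86 higher genes, the NGAL mean lay between the ANX and control means for 77 and above control for 9. Of the 155 lower genes it lay between them for 135 and below control for 20. Foxp2 read 9.39 and 8.31 in control on day 1 and 8.42 and 9.06 on day 2, and against these levels it differed by -1.13 under NGAL, -3.50 under ANX and -3.20 under LIF. Bnc2 differed by -1.31, -3.39 and -2.62, Capn6 by -1.07, -3.20 and -3.16, Slc40a1 by -0.96, -2.30 and -2.35, and Pgf by -0.45, -2.01 and -2.02. The genes were chosen for NGAL minus ANX on these same arrays, so the order of NGAL and ANX against the shared control follows from the choice. Over the 155 lower genes the median against control was 0.17 under NGAL, 0.95 under ANX and 0.67 under LIF, and over the 86 higher genes -0.28, -0.96 and -0.92. No NGAL difference from control passed the test for any gene.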

How the data were processed

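Per the labels' protocols, total RNA of each culture was turned into biotinylated cRNA by the Affymetrix one-cycle procedure for a rat expression array. The deposited intensity values come from robust multichip analysis (RMA), named by the authors in the design text and the submitters' processing notes, where no version is given. They lie on a linear scale (7.6 to 17972) and were turned into log2 values for every fit. Of 31099 probe sets, 20832 could be assigned to a single gene (14218 genes) through the platform annotation and RefSeq gene numbers. For 68 probe sets whose gene number RefSeq no longer lists the platform's symbol was kept, and 436 probe sets named several genes and were left out. The probe set with the highest mean stood for its gene. Testing required that at least 1 group mean lay above log2 5.79 (intensity 55.2), the 40th percentile over the whole table, which is the signal threshold that stands in for depth here, since arrays have no read depth and their number limits the precision.

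The model (limma 3.58.1 in R 4.3.3) had 1 mean for each of the 21 groups of all 42 arrays, with 21 residual degrees of freedom and a variance trend, and adjusted p-values over the 11388 genes tested by the Benjamini-Hochberg method. Differences are log2, NGAL minus ANX, as the mean of days 1 and 2, with the model's standard error (SE). The fits were tested on simulated data first. Where a group is left with 1 array, that array is assumed to vary like the other groups.

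The genes named are the 12 largest differences in each direction among called genes without overlap on either day and with a group mean above the threshold, up to 4 of smallest adjusted p in each gene list, the 6 of smallest p for a change between days, and 10 anchor genes, besides those said to have been chosen after their values were seen. The members and lists were chosen with earlier results of these data known, so a list's direction is no independent evidence. Alternatives were other filters, normalization, probe set rules, variance models, covariates, a replicate block, a pseudocount of 16, a 2-fold minimum and leaving out arrays.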

Additional observations from a re-analysis of the deposited data

Results flagged for a closer look

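For 2 of the genes named by rule, of 16 among the 241 called and 127 of all 11388 genes tested (1.12%), the difference between NGAL and ANX on days 1 and 2 was itself different from that on days 3 to 7, in a contrast added after the data were seen. Fst, follistatin, differed by -1.97 on days 1 and 2 and by 0.16 on days 3 to 7, and the difference of these, -2.12 on the log2 scale, had a limma adjusted p of 0.034. Leaving out 1 array moved it between -2.34 and -1.90 with adjusted p up to 0.112, and the call ended in 9 fits. On days 1 and 2 these were the fits without any of the ANX arrays (0.0516 to 0.109) or without the first NGAL replicate of day 1 (0.112) or of day 2 (0.0923). On the later days they were those without NGAL day 5 replicate 2 (0.0603), ANX day 4 replicate 2 (0.056) and ANX day 3 replicate 1 (0.0532).

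Npy1r, a neuropeptide Y receptor, differed by -1.80 on days 1 and 2 (adjusted p 0.0319, ended in all 8 fits without 1 of those arrays) and by 0.59 on days 3 to 7. It read 5.94 and 4.98 under NGAL and 6.59 and 7.32 under ANX on day 1, and 6.13 and 5.58 against 8.30 and 7.63 on day 2, without overlap on either day. The difference of the differences was -2.40 with an adjusted p of 0.0369. Leaving out 1 array moved it between -2.65 and -2.14, with adjusted p up to 0.114, and the call ended without any 1 of the 8 arrays of days 1 and 2, and without 7 of the 16 later arrays (0.0522 to 0.0603), which were replicate 1 of NGAL on days 3 and 4 and of ANX on days 3 and 7, and replicate 2 of NGAL on day 5 and of ANX on days 4 and 5.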

How the results depend on the processing

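The 241 calls of days 1 and 2 became 684 with array weights, 401 with only the 8 arrays compared, 82 with a 2-fold minimum, 52 with the 5S covariate and 33 without the 2 arrays apart in the dap ratio, a setting added after seeing the data. They ranged from 55 to 260 when each array was left out. On day 1 the count of 0 became 1 with every probe set tested on its own, 2 with array weights and 6 with only the 8 arrays, and ranged from 0 to 1 over the arrays left out. The 117 calls of day 2 became 607 with array weights, 349 with only the 8 arrays, 187 with the dap ratio as covariate, 1 with the 5S covariate, 6 without the 2 arrays apart and 192 with a replicate block, and ranged from 5 to 112 over the arrays left out. With the replicate block 343 genes were called over both days and 4447 on days 3 to 7, and the block ended no call among the named genes. Replicate numbers were taken as names only: deviations of same-numbered arrays from their group means correlated between -0.349 and 0.311 over the pairs of groups. The 4095 calls of days 3 to 7 became 527 with a 2-fold minimum and 2596 with the 5S covariate; leaving out those 16 arrays in turn was not run for that count. The change between days had 0 calls under each alternative run. With the Gapdh 3' over 5' ratio as covariate, also a setting added after seeing the data, 187 genes were called over days 1 and 2. For these counts the cause was not tested. Of 1137 values of the 52 named genes called, 859 kept direction and side of the threshold, 278 kept direction only and 0 reversed. With 2 arrays a group, levels under the signal threshold give only a bound, and a p that misses the threshold does not show equal levels.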
